A study of Mus musculus with 12 samples.

Results

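The expression of 10 genes of the NRF2 pathway and of glutathione supply was examined in murine hip cartilage, with all probes that carry one of their symbols on Illumina mouse BeadChips, arrays of short probes on coated beads. These are Nfe2l2, Keap1, Slc7a11, Gclc, Gclm, Gsr, Txnrd1, Srxn1, Hmox1 and Nqo1, and the probes were taken by symbol. The array carried 21 probes for them among 45281, and 16 of the 21, for 8 of the 10 genes, were in the normalized table of 21004 probes and 15102 genes. The 2 genes with no probe in that table were Gclc and Txnrd1.

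The 12 arrays formed 4 groups of 3, control and injured cartilage of WT mice and of Mapk9 KO mice. All mice were C57BL6 and 4 to 6 weeks old per the labels, and the KO animals are labelled as knockouts of Mapk9, the gene of a c-Jun kinase (JNK2); the allele is not described further in the labels. Injury was the avulsion of the femoral epiphysis, after which injured cartilage was kept in serum-free medium for 4 h, while control cartilage was snap-frozen at once. Injury and culture therefore cannot be told apart in these data. Each replicate pooled the hips of several mice, and in such bulk RNA fewer cells of a type and less RNA per cell cannot be told apart. Each comparison of injured and control cartilage asks which genes respond to injury in that genotype, and the interaction asks whether the response differs between the genotypes.

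NRF2, the protein of Nfe2l2, is a transcription factor that KEAP1 holds in the cytoplasm and hands over to degradation. Oxidants and electrophiles modify KEAP1, NRF2 then accumulates and, with small MAF proteins, binds antioxidant response elements near genes that make glutathione, recycle thioredoxin and glutathione with NADPH, and detoxify quinones and heme. Chondrocytes live in a tissue poor in oxygen and without vessels, and this pathway is one of their defences against oxidants.

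Promoter sequences of the responding and the non-responding genes are shown first, because the antioxidant response element is the sequence that defines NRF2 targets. Of the 10 genes, 7 had an entry in a RefSeq promoter table (GRCm38.p6), with 9 windows of 250 bases before a transcription start. Hmox1, Gclc and Gsr had none. The windows were searched on both strands for TGACNNNGC, taken here as the core of the antioxidant response element, and for TGAGTCA, the site of AP-1 factors. The 2 motifs can share letters, but no such overlap occurred here. TGACNNNGC was in 10.2% of 32851 promoter windows of this length and TGAGTCA in 4.46%. Matches, in capitals below, are descriptions of letters and not of binding, and the windows are written 5′ to 3′ along the gene.

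Nfe2l2 (chr2:75704664-75704913, minus strand): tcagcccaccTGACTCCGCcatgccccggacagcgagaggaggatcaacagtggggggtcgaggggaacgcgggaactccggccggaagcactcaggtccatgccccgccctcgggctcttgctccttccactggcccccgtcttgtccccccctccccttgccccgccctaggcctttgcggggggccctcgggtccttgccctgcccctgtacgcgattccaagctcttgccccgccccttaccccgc
Slc7a11 (chr3:50443614-50443863, minus strand): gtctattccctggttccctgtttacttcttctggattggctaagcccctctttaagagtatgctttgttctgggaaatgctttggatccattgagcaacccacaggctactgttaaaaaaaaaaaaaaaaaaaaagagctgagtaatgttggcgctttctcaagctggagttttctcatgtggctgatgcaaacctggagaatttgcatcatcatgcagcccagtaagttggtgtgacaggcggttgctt
Gclm (chr3:122245307-122245556, plus strand): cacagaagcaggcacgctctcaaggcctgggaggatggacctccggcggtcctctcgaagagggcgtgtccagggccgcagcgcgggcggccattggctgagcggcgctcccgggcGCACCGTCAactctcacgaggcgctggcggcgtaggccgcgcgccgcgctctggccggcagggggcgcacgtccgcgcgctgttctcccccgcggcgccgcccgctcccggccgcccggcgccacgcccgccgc
Srxn1 (chr2:152105274-152105523, plus strand): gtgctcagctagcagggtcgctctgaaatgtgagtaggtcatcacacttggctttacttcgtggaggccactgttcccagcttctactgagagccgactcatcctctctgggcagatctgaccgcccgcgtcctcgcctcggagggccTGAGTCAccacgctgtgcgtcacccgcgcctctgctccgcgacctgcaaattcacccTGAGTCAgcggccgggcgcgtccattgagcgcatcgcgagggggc
Nqo1 (chr8:107403206-107403455, minus strand): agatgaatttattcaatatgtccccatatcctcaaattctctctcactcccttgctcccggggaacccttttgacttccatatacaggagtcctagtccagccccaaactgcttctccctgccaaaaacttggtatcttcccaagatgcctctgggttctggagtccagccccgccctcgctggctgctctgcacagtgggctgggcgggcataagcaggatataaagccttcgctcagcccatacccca

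The Srxn1 window held TGAGTCA at 2 places, from -102 to -96 and from -45 to -39 relative to the start, and no TGACNNNGC. The site from -45 to -39 is followed by GC and so reads TGAGTCAGC, with G where TGACNNNGC has C. That form was not searched, so the window is not shown to lack an antioxidant response element. Nfe2l2 held TGACNNNGC from -240 to -232. Gclm held its reverse complement from -134 to -126. One of the Txnrd1 windows held it from -92 to -84, whereas the windows of Slc7a11, Nqo1 and Keap1 held neither motif. Bases farther from the start were not searched, so a motif there would not be seen.

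Detection and composition of the arrays were examined before the genes. A probe was taken as detected on an array with a detection p-value under 0.05, and 16930 to 18969 probes were detected per array. The brighter Mapk9 probe lay between 10.05 and 10.90 (log2 expression) on the WT arrays and between 8.69 and 9.28 on the KO arrays, a difference of -1.57 in control (limma adjusted p = 0.0151) and in injured cartilage (limma adjusted p = 0.00485), and it was still detected on all KO arrays (raw signal 421 to 794, against 1178 to 2470 in WT). A weaker Mapk9 probe was detected on 3 of 3 WT control, 1 of 3 WT injured and 0 KO arrays, and 2 more, outside the normalized table, on no array. The mean log2 level of 10 chondrocyte markers lay between 10.47 and 11.31 in control and between 12.41 and 12.65 in injured cartilage. Of the 10, 7 rose post injury in WT, where Col11a1 fell, and 8 in KO. Neutrophil markers lay higher on every array, at 12.48 to 13.26 in control and 13.51 to 14.03 in injured cartilage. Erythroid markers lay at 11.51 to 12.20 in control and 11.29 to 11.69 in injured cartilage. Levels of different probes do not give the shares of the cells. Markers of other cells moved as well, and the counts stand against 8.4% of all genes that rose and 8.28% that fell in WT and 10.7% and 10.4% in KO. Of 12 skeletal muscle markers 10 fell in WT and 12 in KO, of 11 macrophage markers 8 fell in WT and 9 in KO while Cd14 and Lyz2 rose in both, and of 9 neutrophil markers 6 rose in both. Adipocyte markers fell for 2 of 5 genes in WT and 4 in KO, osteoblast and osteoclast markers for 5 of 8 and 6, and erythroid markers for 2 of 9 in both, while 1 of 8 endothelial markers, Cdh5, rose in WT and 0 in KO. The mean muscle level was uneven among the WT control arrays, 10.95, 10.14 and 12.31 for replicates 1 to 3, against 12.32 to 12.65 in KO control and 7.47 to 9.54 in all injured cartilage. The part of these shifts in the results below was not tested.

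**Figure D1:**
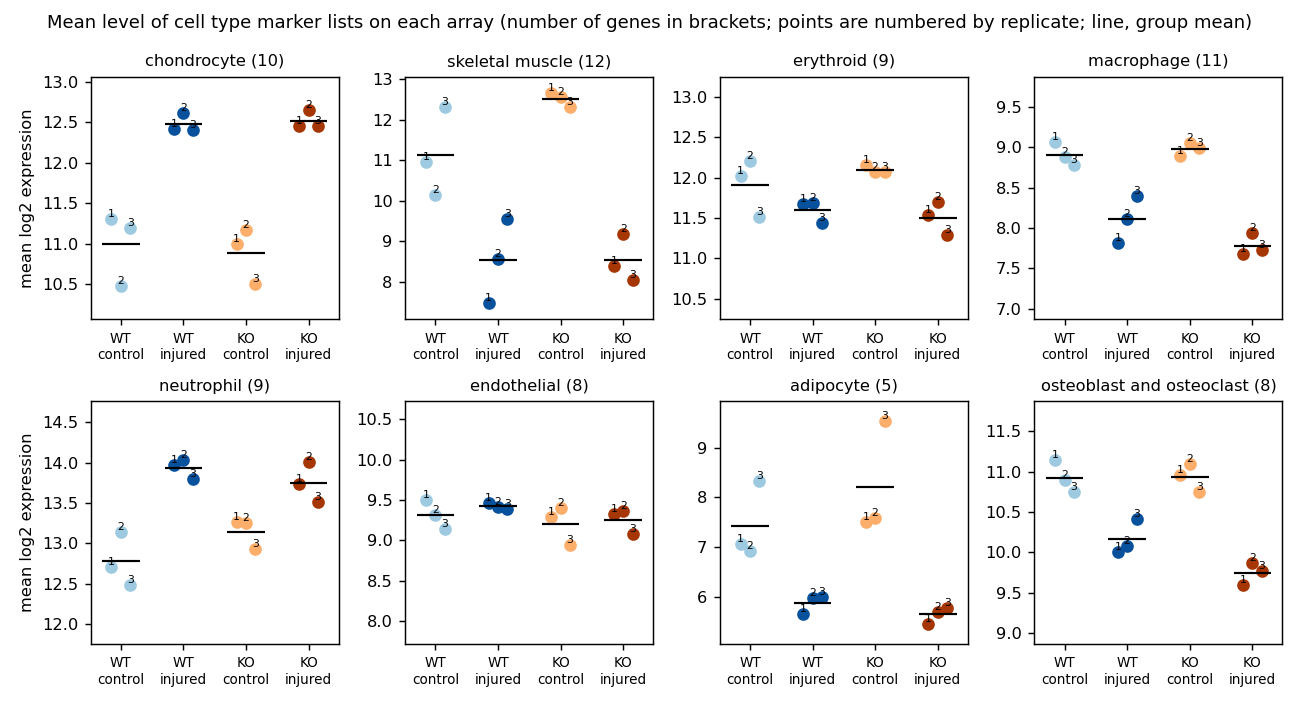
Mean log2 expression (vertical axis) of the markers of 8 cell types or tissues on each of the 12 arrays, by group (horizontal axis), with the number of genes in brackets, replicates numbered and a line at the group mean. Chondrocyte and neutrophil markers lay higher on all injured arrays than on the control arrays of the same genotype, and muscle, macrophage, adipocyte and bone markers lay lower.

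Injury was accompanied by higher expression of Nfe2l2, Slc7a11, Srxn1 and Hmox1 in both genotypes. Nqo1 was lower in both, with log2 fold changes of -1.05 in WT and -0.94 in KO. Only the WT value passed the threshold, and that call depended on the processing. A probe passed the threshold when it changed by more than 2-fold with an adjusted p below 0.05 in limma, a linear model with moderated errors and Benjamini-Hochberg adjustment over all 21004 probes. In WT, 4 of the 8 genes in the table passed upward, against 8.4% of all genes, and 1 gene, Nqo1, passed downward, against 8.28%. In KO the same 4 genes passed upward, against 10.7% of all genes, and 0 passed downward, against 10.4%. Counted by probe, 10 of 16 passed in WT against 14.7% of all probes, and 9 of 16 in KO against 18.7%. Several of these probes belong to the same gene and are not independent. All Slc7a11 probes were undetected in WT control. The dimmest of them passed on fitted values only, while their rise over the detection limit stayed under 2-fold. Keap1, Gclm and Gsr passed in neither genotype. The genes were chosen with earlier results of these data known, so the counts beside the shares are descriptions.

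**Figure D2:**
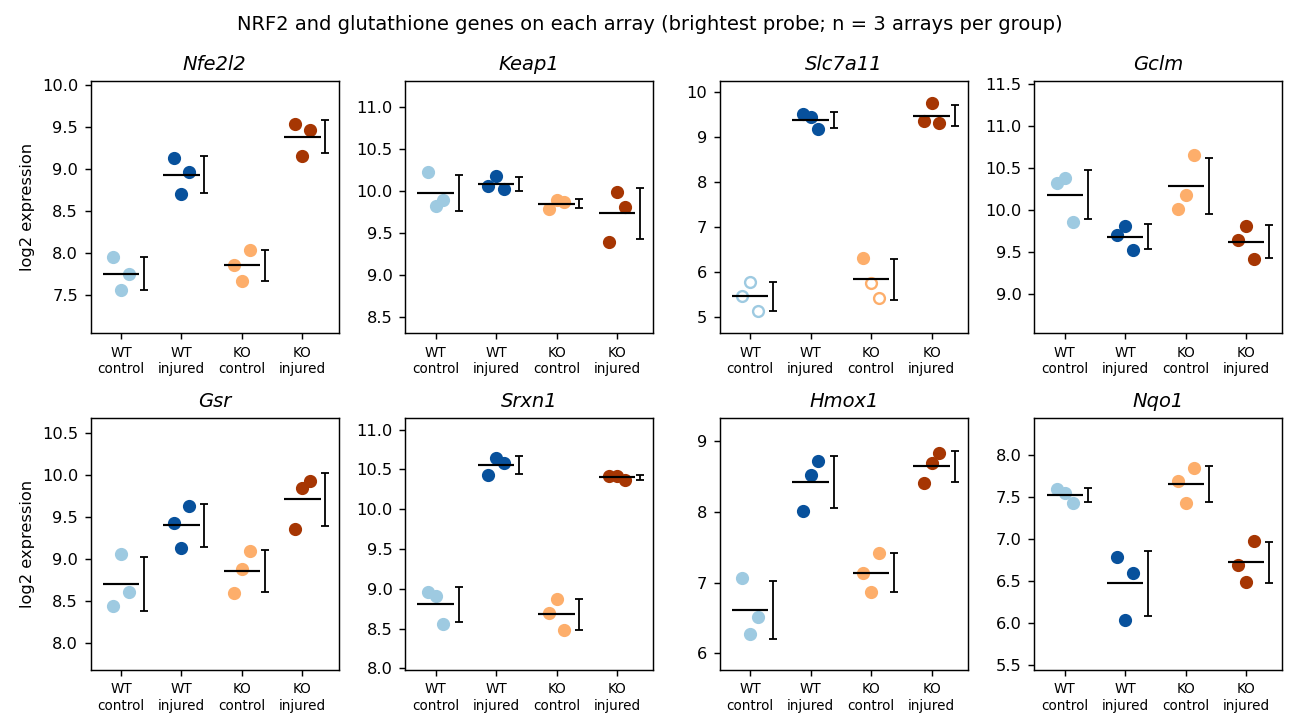
Log2 expression (vertical axis) of the brightest probe of each of the 8 genes on every array, by group (horizontal axis), with a line at the group mean and bars of 1 SD (n = 3). Filled points are detected and open points are not. The injured arrays lay above the control arrays of the same genotype for Nfe2l2, Slc7a11, Gsr, Srxn1 and Hmox1 and below them for Gclm and Nqo1, and the groups overlapped for Keap1.

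Of the 2 regulators, the transcript of the transcription factor itself rose and that of its inhibitor did not pass the test. Nfe2l2 was read by 1 probe in the table, of coding sequence, 50 bases that begin at base 507 of its transcript: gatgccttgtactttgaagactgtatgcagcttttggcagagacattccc. Its log2 expression was 7.95, 7.56 and 7.75 in WT control and 9.13, 8.70 and 8.96 in WT injured cartilage. In KO it was 7.85, 7.66 and 8.03 in control and 9.53, 9.16 and 9.46 post injury. All 6 injured arrays thus lay above all 6 control arrays. The log2 fold change was 1.18 in WT (SE 0.21, 2.27-fold, limma adjusted p = 0.00285) and 1.53 in KO (SE 0.19, 2.89-fold, limma adjusted p = 9.41e-05). With quantile normalization of uncorrected signals the WT value was 0.88, short of the fold limit. Within replicate numbers the difference was even, 1.15 to 1.21 in the 3 WT pairs and 1.43 to 1.68 in the 3 KO pairs. A second Nfe2l2 probe, outside the table, was detected on no array (raw signal 93.4 to 139).

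Keap1, which encodes the adaptor that brings NRF2 to the CUL3 ubiquitin ligase, was read by 4 probes, all detected on all 12 arrays. The probes that begin at bases 3535 and 3565 share part of their sequence and are not independent. At the brightest probe, log2 expression was 10.22, 9.82 and 9.89 in WT control and 10.06, 10.18 and 10.02 in WT injured, and in KO 9.79, 9.90 and 9.88 in control and 9.40, 9.99 and 9.81 in injured cartilage. These groups overlapped in both genotypes. The log2 fold changes of the 4 probes ran from -0.01 to 0.14 in WT (limma adjusted p 0.635 to 0.984) and from -0.22 to -0.01 in KO (limma adjusted p 0.458 to 0.966). The widest 95% intervals reached from -0.64 to 0.64 in WT and from -0.78 to 0.44 in KO, so a change of more than 2-fold lay outside them. The sign at probes of both genotypes turned when single arrays were left out, and no direction is given. At 1 probe the WT groups did not overlap, with 9.56 to 9.70 in control and 9.71 to 9.77 in injured cartilage, a separation in this direction that 20.3% of all probes showed.

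The largest change among the 8 genes in the table, also when taken at its bound, was that of Slc7a11, the cystine/glutamate exchanger (xCT) that brings in the cystine from which glutathione is made. At its brightest probe, log2 expression was 5.45, 5.78 and 5.13 in WT control, where it was detected on 0 of 3 arrays, and 9.52, 9.44 and 9.16 in WT injured cartilage. In KO it was 6.31, 5.75 and 5.42 in control, detected on 1 array, and 9.36, 9.74 and 9.31 post injury. Slc7a11 thus went from the detection limit to a clear signal in all 6 injured samples. Because the control level was not measured in WT, the change there is given as a bound, the injured mean over the lowest level of a detected probe on each control array (log2 5.62 to 6.05) or the probe's own value if higher. The rise was at least 11.5-fold in WT (limma adjusted p = 3.52e-06), and in KO, with 1 of 3 control arrays detected, the fitted change was 3.64 (SE 0.24, limma adjusted p = 1.35e-06), whose size is uncertain for that reason. These sizes hold for the deposited normalization. The fitted change was 3.82 in WT and 3.67 in KO with neqc, a background correction followed by quantile normalization, and 2.29 and 2.30 with quantile normalization of uncorrected signals, less than the bound above.

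The second Slc7a11 probe, which begins at base 8858 of the transcript, was undetected in both control groups at 3.75 to 5.30 in WT and 4.59 to 4.84 in KO. Post injury it reached 9.45, 9.31 and 9.10 in WT and 9.25, 9.65 and 9.30 in KO. This was a rise of at least 10.8-fold in WT (limma adjusted p = 1.45e-05) and 11.1-fold in KO (limma adjusted p = 7.99e-08) on the deposited values, while with quantile normalization of uncorrected signals the fitted changes were 2.43 and 2.55, less than these bounds. The remaining probes of the table were dim, at 6.33 to 7.06 and 6.52 to 7.19 on the injured arrays and undetected in control. They passed the threshold on the fitted values in both genotypes, while their bounds, at least 1.92-fold and 1.74-fold in WT and 1.72-fold and 1.94-fold in KO, stayed under 2, and with quantile normalization of uncorrected signals the fitted values, 0.75 to 0.97, did not pass. Another probe, outside the table, was detected on no array (raw signal 119 to 197), and the probes of Slc7a11 therefore did not all show the rise.

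Glutamate-cysteine ligase, the first and rate-limiting enzyme of glutathione synthesis, is a pair of a catalytic subunit (Gclc) and a modifier subunit (Gclm). Gclm did not rise, and Gclc was not measured above background. Gclm was bright, with log2 expression of 10.32, 10.38 and 9.86 in WT control and 9.71, 9.81 and 9.52 post injury. In KO it was 10.02, 10.18 and 10.66 in control and 9.64, 9.81 and 9.42 post injury. Injured arrays lay below the control arrays in each genotype, as for 20.8% of all probes in WT and 25.2% in KO. The log2 fold change was -0.50 in WT (SE 0.22, limma adjusted p = 0.118) and -0.66 in KO (SE 0.21, limma adjusted p = 0.0291), in both short of the fold limit. With 1 array left out, the WT value ran from -0.67 without WT control replicate 3 (limma adjusted p = 0.0436) to -0.40 without WT control replicate 2 (limma adjusted p = 0.236). The KO value ran from -0.79 without KO control replicate 1 (limma adjusted p = 0.0207) to -0.48 without KO control replicate 3 (limma adjusted p = 0.0876).

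The single probe of Gclc was not detected on any of the 12 arrays, with a raw signal of 113 to 159 and detection p-values of 0.178 to 0.428, against a median signal of 121 to 190 over all probes of an array. No level or change of Gclc could be given at this sensitivity. In a fit on all 45281 probes its log2 values differed by 0.09 between injured and control in WT (SE 0.08, limma adjusted p = 0.665) and by 0.02 in KO (SE 0.07, limma adjusted p = 0.940), which describes signal at background.

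Among the enzymes of thiol reduction, Srxn1 rose and Gsr did not pass the fold limit. Srxn1 encodes sulfiredoxin, which repairs overoxidized peroxiredoxins, and is named Npn3 in the normalized table. Its brightest probe was at 8.96, 8.90 and 8.55 in WT control and 10.43, 10.65 and 10.58 in WT injured cartilage. The KO values were 8.69, 8.87 and 8.48 in control and 10.42, 10.42 and 10.36 post injury. No injured array came near a control array, and the injured levels were close together. The log2 fold change was 1.75 in WT (SE 0.20, 3.36-fold, limma adjusted p = 0.000252) and 1.72 in KO (SE 0.17, 3.29-fold, limma adjusted p = 2.63e-05).

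The other Srxn1 probes also rose. The second was at 7.70, 6.99 and 7.56 in WT control and 9.29, 9.03 and 9.12 in WT injured, and at 7.08, 7.13 and 7.49 in KO control and 9.67, 9.30 and 9.76 in KO injured cartilage. Its log2 fold change was 1.73 in WT (SE 0.23, limma adjusted p = 0.000558) and 2.35 in KO (SE 0.20, limma adjusted p = 7.35e-06). The third, detected on 2 of 3 control arrays in each genotype, changed by 1.67 in WT (limma adjusted p = 0.00386) and by 1.84 in KO (limma adjusted p = 0.000249). In WT this probe lost the threshold with quantile normalization of uncorrected signals (0.86) and in the methods' t-test (adjusted p = 0.0811), and with the former the KO value was 1.03, just past the fold limit. All 3 probes were higher post injury in 6 of 6 pairs of the same replicate number.

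Gsr encodes glutathione reductase, which regenerates reduced glutathione, and its probe carries another name, LOC630729, in the non-normalized table. Log2 expression was 8.43, 9.06 and 8.61 in WT control and 9.43, 9.13 and 9.64 in WT injured cartilage. In KO it was 8.60, 8.88 and 9.09 in control and 9.35, 9.84 and 9.93 in injured cartilage. The groups did not overlap in either genotype, as for 20.3% of all probes in WT and 24.5% in KO. The log2 fold change was 0.70 in WT (SE 0.23, 1.62-fold, limma adjusted p = 0.0520) and 0.85 in KO (SE 0.21, 1.80-fold, limma adjusted p = 0.00885). The WT pairs ranged from 0.07 in replicate 2 to 1.03 in replicate 3, and with 1 array left out the WT value ran from 0.57 without WT control replicate 1 (limma adjusted p = 0.166) to 0.88 without WT control replicate 2 (limma adjusted p = 0.0177).

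Txnrd1, the cytosolic thioredoxin reductase, was not detected on any array at its 1 probe, with a raw signal of 103 to 155 and detection p-values of 0.279 to 0.766. As for Gclc, no level could be given.

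The detoxifying enzymes Hmox1 and Nqo1, both widely used as readouts of NRF2, went in opposite directions. Hmox1 encodes heme oxygenase 1, which cleaves heme to biliverdin, iron and carbon monoxide. Its log2 expression was 7.07, 6.27 and 6.51 in WT control and 8.01, 8.52 and 8.73 in WT injured cartilage. KO values were 7.13, 6.87 and 7.42 in control and 8.41, 8.69 and 8.83 post injury. Every injured array exceeded every control array. The log2 fold change was 1.80 in WT (SE 0.27, 3.49-fold, limma adjusted p = 0.00107) and 1.50 in KO (SE 0.20, 2.83-fold, limma adjusted p = 0.000196). With quantile normalization of uncorrected signals these were 1.13 and 1.03, still past the threshold. The WT pairs were uneven, from 0.95 in replicate 1, whose control array was the highest of WT, to 2.25 in replicate 2. Macrophages also express Hmox1, and the mean log2 level of their 11 markers was 8.78 to 9.06 in WT control and 7.82 to 8.40 in WT injured cartilage, and 8.89 to 9.05 and 7.67 to 7.94 in KO, although Cd14 and Lyz2 rose in both. The part of macrophages in the Hmox1 values was not tested.

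Nqo1 encodes a quinone reductase that uses NADPH or NADH and is among the best known targets of NRF2. Its probe in the table reads 50 coding bases from base 643 of the transcript: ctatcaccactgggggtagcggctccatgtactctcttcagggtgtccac. Log2 expression was 7.59, 7.54 and 7.42 in WT control and 6.78, 6.03 and 6.59 in WT injured cartilage. In KO it was 7.69, 7.42 and 7.84 in control and 6.68, 6.49 and 6.97 in injured cartilage. All injured arrays lay below all control arrays, the reverse of Hmox1. The log2 fold change was -1.05 in WT (SE 0.23, 2.07-fold lower, limma adjusted p = 0.00854), just past the fold limit, and -0.94 in KO (SE 0.20, limma adjusted p = 0.00341), just short of it. The WT call depended on the processing, since with neqc normalization the value was -0.98 and with quantile normalization of uncorrected signals -0.51. It also rested on WT injured replicate 2, without which the value was -0.83 (limma adjusted p = 0.0394). The second Nqo1 probe, outside the table, was detected on no array (raw signal 95.9 to 139).

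**Figure D3:**
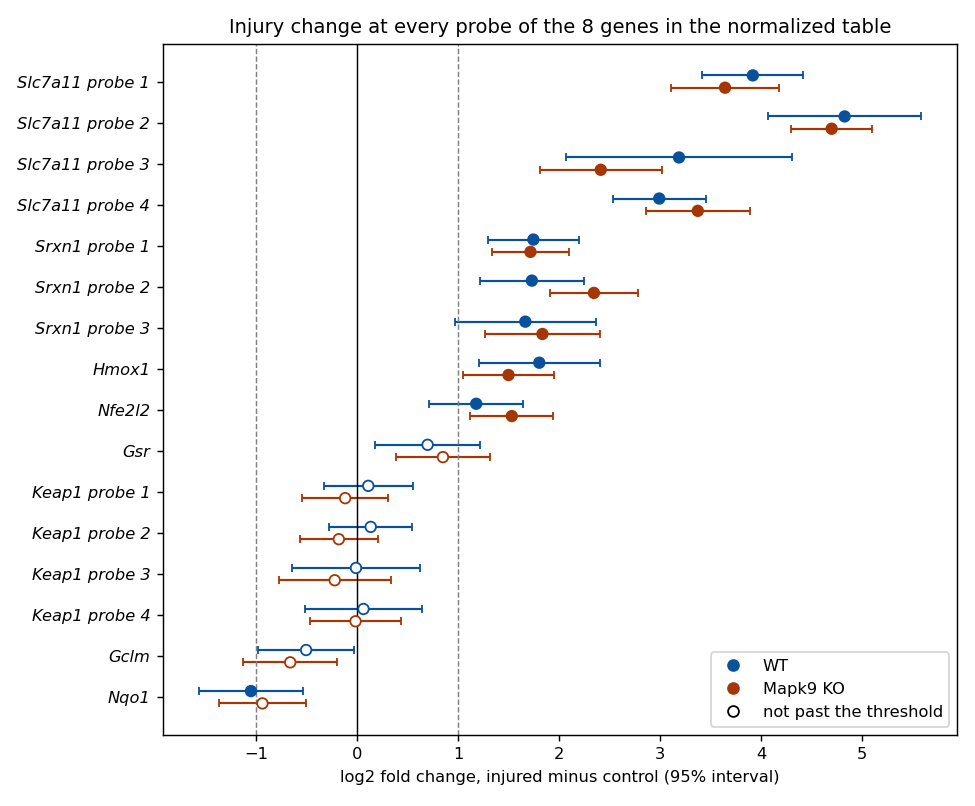
Log2 fold change of injured minus control cartilage (horizontal axis) with its 95% interval for each of the 16 probes (vertical axis) in WT (blue) and Mapk9 KO (orange), with dashed lines at a 2-fold change and filled points past the threshold. Slc7a11 values are fitted against control levels at or under the detection limit. All Slc7a11, Srxn1, Hmox1 and Nfe2l2 probes lay to the right of 1, Keap1 lay around 0, and Nqo1 lay at -1.05 in WT and -0.94 in KO.

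None of the 16 probes passed the threshold between the genotypes. Between the control groups, 0 of the 8 genes passed the threshold, against 0.152% of all genes, with log2 differences of KO minus WT from -0.18 to 0.53 over the 12 probes detected on at least 1 array of both groups and a smallest limma adjusted p of 0.820. The 4 Slc7a11 probes were undetected in WT control and give no difference there. Between the injured groups, 0 of 8 passed, against 0.205% of all genes, with differences from -0.35 to 0.45 and a smallest limma adjusted p of 0.359. With the replicate number as a block, 188 of all probes passed between the injured groups, against 38 without it, and none of the 16. These counts do not show that the genotypes were alike, since the 95% intervals of the detected probes reached from -0.75 to 1.10 in control and from -0.96 to 0.89 in injured cartilage.

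In injured cartilage, 5 of the 16 probes nonetheless showed genotype groups that did not overlap. Nfe2l2 and the second Srxn1 probe were higher in all 3 KO injured arrays, by 0.45 (SE 0.18, limma adjusted p = 0.359) and 0.43 (SE 0.18, limma adjusted p = 0.371). In the fit with the replicate block these had smaller errors (SE 0.11 and 0.13) and limma adjusted p of 0.116 and 0.155, the lowest of the 16 probes. The 2 brightest Keap1 probes were lower, by -0.35 (SE 0.19, limma adjusted p = 0.472) and -0.30 (SE 0.16, limma adjusted p = 0.455). The remaining Keap1 probes had the same sign, at -0.29 and -0.20, but their groups overlapped (limma adjusted p = 0.714 and 0.654). The brightest Srxn1 probe was lower as well, by -0.15 (SE 0.15, limma adjusted p = 0.712), so the probes of Srxn1 differed in sign. Over all probes, 7.36% were higher and 9.47% lower without overlap in this comparison.

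The test of the difference in injury response, KO minus WT over all 12 arrays, called 0 of the 16 probes. Over the 12 probes detected on at least 1 array of all 4 groups, the log2 differences ran from -0.32 to 0.61, with a smallest limma adjusted p of 0.526. No difference is given for Slc7a11, whose WT control level was not above background. Of all 21004 probes it called 0.0%, and 2088 had an unadjusted p under 0.05, none of them among the 16. The difference was 0.35 for Nfe2l2 (95% interval -0.22 to 0.92), -0.03 for the brightest Srxn1 probe (-0.55 to 0.49) and -0.30 for Hmox1 (-1.05 to 0.44). For Nqo1, which passed the threshold in WT and not in KO, it was 0.11 (-0.53 to 0.76). The second Srxn1 probe had the smallest p, with a difference of 0.61 (-0.03 to 1.26). With the replicate number as a block, 112 of all probes passed and none of the 16, the second Srxn1 probe having a limma adjusted p of 0.236. Without WT control replicate 3, 242 of all probes passed and again none of the 16.

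The wider pathway was described with 8 lists of 92 genes, 80 of them in the table, of which a gene counted as changed when at least 1 of its probes passed the threshold. In WT, 14 rose and 9 fell, and in KO 12 rose and 11 fell. The lists too were chosen with earlier results of these data known, so these counts are descriptions. With the 10 genes left out, 10 of 72 rose and 8 fell in WT, against 8.4% and 8.28% of all genes, and 8 rose and 11 fell in KO, against 10.7% and 10.4%. The median log2 fold change of these 72 was -0.00 in WT and -0.14 in KO, against -0.02 and -0.04 over all genes. Among those counted, Maff, Slc3a2 and Tkt in both genotypes and Adh7 in WT passed on fitted values, with a group undetected and bounds under 2-fold. None of the 80 differed between the genotypes past the threshold, against 0.152% of all genes in control and 0.205% in injured cartilage. With shares this small, the absence of calls says nothing particular about the lists.

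Among NRF2 regulators, 2 of 10 rose and 0 fell in each genotype, against 8.4% and 8.28% of all genes in WT and 10.7% and 10.4% in KO. The 2 were Nfe2l2 and Maff, a small MAF protein that pairs with NRF2 and its relatives. Maff was undetected in all control arrays and rose by at least 1.48-fold in WT (limma adjusted p = 0.000661) and 1.53-fold in KO, detected there on 2 of 3 injured arrays (limma adjusted p = 0.000812). The members with the highest levels that did not pass were Rbx1 and Cul3, subunits of the ligase that carries KEAP1, at -0.18 and 0.25 in WT and -0.44 and 0.25 in KO on their brightest probes. Their second probes were at -0.63 and -0.64 in WT (limma adjusted p = 0.0336 and 0.0340) and at -0.78 and -0.37 in KO (limma adjusted p = 0.00421 and 0.143), so the probes of Cul3 differed in sign. The list median was 0.66 in WT, or 0.59 with Maff at its bound, and 0.42 in KO.

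In glutathione synthesis and breakdown, 3 of 10 genes rose and 1 fell in each genotype, where 8.4% of all genes rose and 8.28% fell in WT and 10.7% and 10.4% in KO. Beside Slc7a11, its partner chain Slc3a2 rose by at least 1.44-fold in WT (limma adjusted p = 0.000405) and 1.48-fold in KO (limma adjusted p = 0.00132) from undetected control levels, and was detected on 2 of 3 KO injured arrays. Chac1, which degrades glutathione, was well detected in all samples and rose from 8.83 ± 0.15 to 12.47 ± 0.20 in WT (SD, n = 3), a log2 fold change of 3.64 (SE 0.20, limma adjusted p = 2.89e-06), and by 3.55 in KO (SE 0.20, limma adjusted p = 4.74e-07). Dpep1, a dipeptidase that acts on cysteinyl-glycine, fell by at least 2.17-fold in WT (limma adjusted p = 0.0030) and was called down in KO too (limma adjusted p = 5.55e-05), where it was detected on 3 of 3 control and 1 of 3 injured arrays. Ggct, a cyclotransferase of the same breakdown route, was at 0.24 in WT and 0.39 in KO and did not pass.

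For the peroxide-removing enzymes, the shares over all genes were again 8.4% up and 8.28% down in WT and 10.7% and 10.4% in KO. Of 11 glutathione peroxidases and glutaredoxins, Glrx rose in WT (1.19, SE 0.24, limma adjusted p = 0.00549) and stood at 0.96 in KO, below the fold limit, as did its second probe at 0.93 in WT and 0.86 in KO, while Glrx5, of mitochondrial iron-sulfur cluster assembly, fell by 1.01 in both. Gpx1 and Gpx3, the highest of those that did not pass, were at 0.33 and -0.17 in WT and at -0.02 and -0.28 in KO. Of 14 thioredoxins and peroxiredoxins, 3 rose in both genotypes, Srxn1, Sesn2 and Prdx5, and 2 fell in KO, Prdx3 and Sesn1 (-1.05 and -1.07). In WT these were at -0.95 and -0.72 (limma adjusted p = 0.0250 and 0.0379), short of the fold limit, and the other Sesn1 probes were at -0.85 and 0.57 in WT and -0.95 and 0.19 in KO. Prdx5 is named here after its values were seen. Sesn2, a stress-induced sestrin, changed by 1.74 in WT (SE 0.24, limma adjusted p = 0.000777) and 1.93 in KO (SE 0.18, limma adjusted p = 1.62e-05). Prdx1 and Prdx2 were at 0.04 and -0.27 in WT and at -0.35 and -0.71 in KO (limma adjusted p = 0.0216 for Prdx2 in KO). Of the 4 enzymes for superoxide and peroxide, catalase (Cat) fell in WT (-1.29, SE 0.35, limma adjusted p = 0.0216) and missed the threshold in KO (-0.94, limma adjusted p = 0.0501), and Sod1 and Sod2 were at 0.33 and -0.14 in WT and at -0.19 and -0.62 in KO (limma adjusted p = 0.0176 for Sod2 in KO).

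Of 7 genes of NADPH supply, 3 rose in WT, Me1, Tkt and Pgls, and 1 in KO, Tkt, against 8.4% and 10.7% of all genes, but for Tkt and Pgls only 1 of several probes passed and the brightest did not. The Tkt probe that passed was undetected in control, and its bounds were at least 1.09-fold in WT and 1.25-fold in KO, while the brightest Tkt probe was at 0.57 and 0.05. Malic enzyme Me1 changed by 1.16 in WT (SE 0.31, limma adjusted p = 0.0216) and 0.61 in KO (limma adjusted p = 0.273), and its second probe, at 0.84 and 0.75, passed in neither. Idh1, the cytosolic NADP-dependent isocitrate dehydrogenase, fell by 1.76 in WT (SE 0.22, limma adjusted p = 0.000344) and by 1.44 in KO (SE 0.18, limma adjusted p = 0.000138). Pgd of the pentose phosphate pathway was at 0.62 in WT (limma adjusted p = 0.0481) and 0.50 in KO (limma adjusted p = 0.0390), short of the fold limit. Taldo1 of the same pathway was at 0.27 in WT and -0.18 in KO without passing. In heme and iron handling, Hmox1 was the 1 gene of 10 that rose, a share near that of all genes, while 2 fell in WT and 4 in KO, against 8.28% and 10.4%. The iron exporter Slc40a1 fell by 1.76 in WT (SE 0.25, limma adjusted p = 0.000818) and by 1.80 in KO (SE 0.19, limma adjusted p = 3.08e-05), and the heme-binding protein gene Hebp1 by 1.25 and 1.97. Blvra, the biliverdin reductase downstream of heme oxygenase, and Tfrc, named after its values were seen, fell in KO. Blvra was at -1.36 in KO (limma adjusted p = 0.000212) and at -0.98 in WT (limma adjusted p = 0.0162), just short of the fold limit. Fth1, the ferritin heavy chain, was at 0.29 in WT and -0.07 in KO, and the biliverdin reductase gene Blvrb at -0.25 and -0.88 (limma adjusted p = 0.00417 in KO).

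Of 15 other NRF2 targets, 1 rose and 3 fell in WT, and 2 rose and 2 fell in KO, Nqo1 being among those that fell in WT. The shares over all genes were 8.4% up and 8.28% down in WT and 10.7% and 10.4% in KO. Osgin1, an oxidative stress-induced growth inhibitor, rose from 6.22 ± 0.18 to 8.60 ± 0.05 in WT (SD, n = 3; 2.38, SE 0.19, limma adjusted p = 3.38e-05) and by 1.98 in KO (SE 0.18, limma adjusted p = 1.44e-05). Cbr3, a carbonyl reductase, fell beside Nqo1, by 1.26 in WT (SE 0.22, limma adjusted p = 0.00244) and 1.19 in KO (SE 0.22, limma adjusted p = 0.00163). Its second probe was at -1.21 in WT (limma adjusted p = 0.00597) and, short of the fold limit, at -0.72 in KO (limma adjusted p = 0.0140). Adh7 fell by at least 1.94-fold in WT (limma adjusted p = 0.0121) and 2.22-fold in KO (limma adjusted p = 3.43e-05), to undetected levels. Epha2 passed in KO at 1.46 (limma adjusted p = 0.000113) and was at 0.63 in WT (limma adjusted p = 0.120). The difference between these changes, 0.83 (95% interval 0.12 to 1.55), did not pass the interaction test (limma adjusted p = 0.428).

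**Figure D4:**
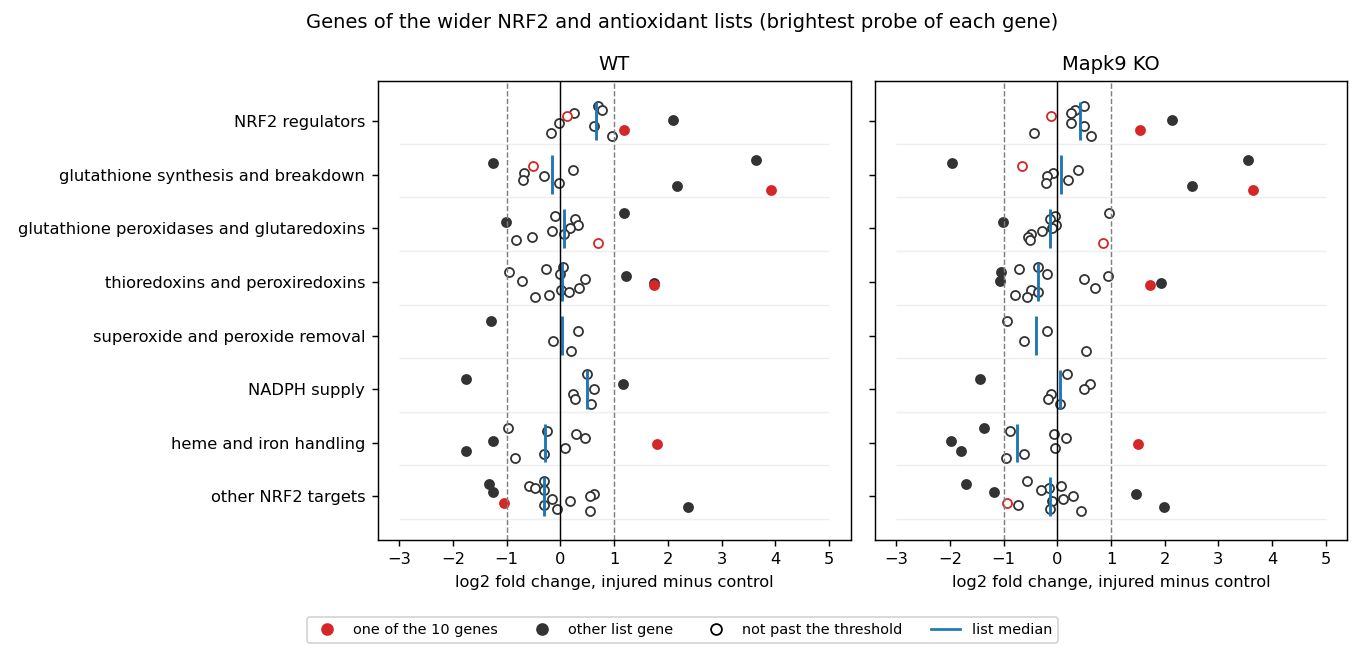
Log2 fold change of injured minus control cartilage (horizontal axis) at the brightest probe of each gene in the 8 pathway lists (vertical axis), for WT and Mapk9 KO, with the 10 genes in red, filled points past the threshold, dashed lines at a 2-fold change and blue bars at the list medians. Slc7a11, Slc3a2, Maff, Dpep1, Lap3, Adh7 and Aox1 in WT, and Slc3a2, Maff, Lap3, Adh7 and Aox1 in KO, are drawn at fitted values although 1 group of each was undetected, so their places have no order. Chac1, detected on all arrays, lay at 3.64 in WT and 3.55 in KO.

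For each gene, the probe of another gene with the most similar profile over the 12 arrays was found by Pearson correlation. Since all 12 arrays include both conditions, any pair of genes with an injury change correlates, and the values are descriptions. Srxn1 was closest to Ddit4 (r = 0.999), a stress-induced inhibitor of mTORC1, and Slc7a11 to Trem1 (r = 0.997), a receptor of neutrophils and monocytes. Hmox1 was closest to Phgdh (r = 0.980), which begins serine synthesis, Nfe2l2 to Dhrs9 (r = 0.988) and Gsr to LOC234486 (r = 0.977). Gclm was closest to Tk1 (r = 0.977), thymidine kinase of dividing cells, and Nqo1 to Uros (r = 0.971), an enzyme of heme synthesis. Keap1, with no injury change past the threshold, had a lower best value, with Setd6 (r = 0.900).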

How the data were processed

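RNA was hybridized to Illumina BeadChips. The authors deposited raw bead intensities for 45281 probes with a detection p-value each, and log2 values for 21004 probes, made by subtracting a background from negative control probes and normalizing with vsn. The package version and genome build are not given in the sources used here. Groups came from the labels. No depth applies, and the number of arrays limits the precision.

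The members and lists were chosen with earlier results of these data known. Probes were matched to current symbols through RefSeq (GRCm38.p6): 14489 by accession, 1644 by symbol, 947 by the symbol in the other deposited table and 59 by gene ID, while 3865 stayed under their deposited name. The deposited log2 values were fitted with limma 3.58.1 in R 4.3.3, on the 6 arrays of each comparison and on 12 for the interaction, with Benjamini-Hochberg adjustment and no covariate. The self-test on simulated data preceded the fits. A gene passed when 1 probe changed more than 2-fold with an adjusted p below 0.05, the limits of the study's methods, and the interaction needed the adjusted p only. The brightest probe is that with the highest mean. Named genes were the 10 genes with all probes, Mapk9, up to 4 genes of each pathway list that passed, by smallest adjusted p, the 2 highest that did not, and 1 probe most like each gene.

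The replicate numbers are shared between groups. Departures from each group's mean had correlations of 0.153 to 0.390 in the 18 pairs of arrays that share a number and of -0.289 to 0.0825 in the 36 others, so the numbers were taken to pair the samples. The main fits have no block, so their errors, intervals and adjusted p leave this pairing out. Alternatives were neqc (offset 16), array medians subtracted, quantile normalization of signals not corrected for background, probes detected on at least 3 arrays, all probes of the array, all 12 arrays in each fit, the replicate block, the label code number as a block, the methods' t-test, no fold limit, and each array left out.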

Additional observations from a re-analysis of the deposited data

How the results depend on the processing

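The count of genes past the threshold was 5 in WT and 4 in KO, and 0 for both genotype comparisons and the interaction under all alternatives run. In WT it was 3 with quantile normalization of uncorrected signals, which lost Nfe2l2 (0.88) and Nqo1 (-0.51), and in KO it was 7 with no fold limit, which added Gsr, Gclm and Nqo1. With 1 array left out, the count was 4 to 5 in WT and 4 to 5 in KO. Nqo1 in WT was also lost with neqc (-0.98), array medians subtracted (-0.998) and the methods' t-test (adjusted p = 0.0668), and passed in KO without KO control replicate 2 (-1.05) or KO injured replicate 3 (-1.07), as Gsr did without KO injured replicate 1 (1.03).

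The sign of Keap1 turned at single probes. In WT the probe that begins at base 3565 was at 0.041 with array medians subtracted, and with 1 array left out ran from -0.24 to 0.29, including 0.13 and 0.29, and the probe at base 2529 from -0.20 to 0.26, including -0.01. In KO, with 1 array left out, the brightest probe ran from -0.25 to 0.051, the probe at base 3565 from -0.39 to 0.028 and the probe at base 2529 from -0.18 to 0.17, including 0.02 and 0.0019. The cause of these shifts was not tested.

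With the replicate number as a block, which pairs the samples, the count was 5 in WT, 4 in KO and 0 in the other comparisons, and the blocked fit changed no call of the 10 genes. Genotype genes called over the whole table went from 23 to 334 in control cartilage without WT control replicate 3. Dim probes limit what can be seen of Gclc, Txnrd1 and the control level of Slc7a11.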
